A study of Homo sapiens with 6 samples.

Results

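Keratins are the intermediate filament proteins of epithelial cells, and each filament is built from pairs of 1 type I and 1 type II keratin. Which pair a cell makes follows its place and kind of epithelium: *KRT5* and *KRT14* in the basal layer of stratified epithelium, *KRT4* and *KRT13* in the suprabasal layers of mucosa that does not cornify, and *KRT8* and *KRT18* in simple epithelium. *KRT6A*, *KRT16* and *KRT17* are the keratins that epidermis makes after wounding. Described here are 10 keratin genes, *KRT5*, *KRT14*, *KRT15*, *KRT13*, *KRT19*, *KRT8*, *KRT18*, *KRT17*, *KRT7* and *KRT6A*, which were picked by symbol from the 12499 genes of the count table. All 10 had a row, and all passed the filter on low counts that left 12462 genes tested. They were chosen with their levels in these libraries known. Their differences between groups are therefore given as a description, with no test of their own.

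The cells were HaCaT, a human keratinocyte line that grows without limit in culture. One group received a lentivirus with the coding sequence of *ATF7*, a transcription factor of the CREB/ATF family (LV-*ATF7*), and the other a negative control virus (LV-NC), each for 48 hours. Both groups were then cultured in high glucose for 24 hours, and mRNA was sequenced from 3 libraries per group. The labels do not say that the libraries came from separate cultures, so the spread between them may be technical.

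*ATF7* itself stood at 50.6, 46.4 and 52.2 CPM (counts scaled to library size, with TMM normalization between libraries) in the libraries labeled LV-NC. It stood at 21.9, 25.7 and 28.0 CPM in those labeled LV-*ATF7*, a log2 difference of −0.98 (SE 0.12), which goes against the labels, so each group is called here by its label only. Were the labels exchanged, every direction given here would turn. LV-NC replicate 1 stood apart from its group, with a correlation of log2 CPM of 0.967 and 0.969 to the other LV-NC libraries, where those 2 reached 0.994 and the LV-*ATF7* libraries reached 0.993 to 0.995. The total counts lay between 16686472 and 20562768. Of 12462 genes, 67.6% passed an adjusted p of 0.05 in edgeR's quasi-likelihood test, so a difference between these groups was the common outcome for any gene. Markers of other cell types were read from short lists: *CDH5*, an endothelial cadherin, was at 0.642, 3.72 and 4.86 CPM in LV-NC and at 81.0, 86.2 and 85.9 CPM in LV-*ATF7*, while the summed fibroblast list (3 of 8 with a row) was at 35.1 to 42.7 and at 17.4 to 21.8 CPM. On the fibroblast list, *COL1A1* had means of 36.7 CPM in LV-NC and 16.8 CPM in LV-*ATF7*. *DCN* went the other way, with 31, 0 and 0 counts in LV-NC and 39, 59 and 51 counts in LV-*ATF7*. Of the endothelial list 2 of 4 genes had a row, and *PECAM1* and *KDR* were not analyzed here. The melanocyte list (2 of 6 with a row) summed to 17.5 to 24.8 and 12.2 to 13.0 CPM. Its 2 genes went opposite ways. *MITF* had means of 18.8 CPM in LV-NC and 8.13 CPM in LV-*ATF7*, and *PMEL* of 2.05 and 4.51 CPM. The leukocyte list (1 of 5, *CD14*) summed to 1.51 to 1.73 and 7.09 to 9.57 CPM. All 13 keratinocyte markers had a row and summed to 2940 to 3810 CPM in LV-NC and to 8080 to 8760 CPM in LV-*ATF7*. Without *KRT5* and *KRT14*, which are on that list, the other 11 summed to 2840 to 3460 and to 4850 to 5130 CPM. The part of these markers in the keratin values was not tested.

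Some type I keratins are close copies of each other where their rod ends. The sequences are shown because such likeness can limit how well reads are told apart. Each line is 60 bases of coding sequence from 1 coding exon (GENCODE 29, GRCh38), and capitals mark the bases that differ from *KRT14* in the type I genes. All are on chromosome 17, minus strand, except *KRT18* on chromosome 12, plus strand. The positions are chr17:41583243-41583302 for *KRT14*, chr17:41620667-41620726 for *KRT17*, chr17:41610339-41610398 for *KRT16*, chr17:41502382-41502441 for *KRT13*, chr17:41515480-41515539 for *KRT15*, chr17:41523785-41523844 for *KRT19* and chr12:52952272-52952331 for *KRT18*.
KRT14: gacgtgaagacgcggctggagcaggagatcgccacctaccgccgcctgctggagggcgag
KRT16: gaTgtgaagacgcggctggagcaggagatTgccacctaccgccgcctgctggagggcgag
KRT17: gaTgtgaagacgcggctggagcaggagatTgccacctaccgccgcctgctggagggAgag
KRT13: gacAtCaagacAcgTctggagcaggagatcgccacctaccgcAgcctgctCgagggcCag
KRT15: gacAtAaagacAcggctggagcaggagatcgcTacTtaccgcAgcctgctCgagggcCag
KRT19: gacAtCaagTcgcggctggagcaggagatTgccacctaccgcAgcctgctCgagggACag
KRT18: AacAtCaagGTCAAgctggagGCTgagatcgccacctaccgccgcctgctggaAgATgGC

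*KRT16* differed from *KRT14* at 2 of these bases and *KRT17* at 3, *KRT13* at 7, *KRT15* and *KRT19* at 8 each, and *KRT18* at 16. *KRT10*, a type I keratin whose sequence is left out here, differed at 17.

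Over whole transcripts, the share of 100-base windows that also occur letter for letter in a transcript of another gene was highest among the 10 for *KRT6A*, at 18.2%, with *KRT6C* holding 17.6% and *KRT6B* 10.7% of its windows. It was 16.6% for *KRT18*, all shared with an overlapping *KRT8* transcript on the opposite strand, and 14.8% for *KRT13*, shared with the antisense transcript *AC019349.1*. *KRT7* shared 7.7% with *KRT7-AS*, *KRT8* shared 7.6% with its pseudogenes, and *KRT14* shared 6.0% with *KRT16* and *KRT16* pseudogenes. The share was 1.4% for *KRT5*, 0.3% for *KRT17* and 0% for *KRT15* and *KRT19*. With 50-base windows the shares were 47.6% for *KRT18*, 41.3% for *KRT8*, 39.1% for *KRT6A*, 23.8% for *KRT14* and 16.0% for *KRT17*. The read length, the strandedness and the handling of reads with several matches are not given in the sources used here, so the counts of *KRT6A*, *KRT18*, *KRT13*, *KRT8*, *KRT7*, *KRT14* and *KRT17* are uncertain to that extent.

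**Figure D1:**
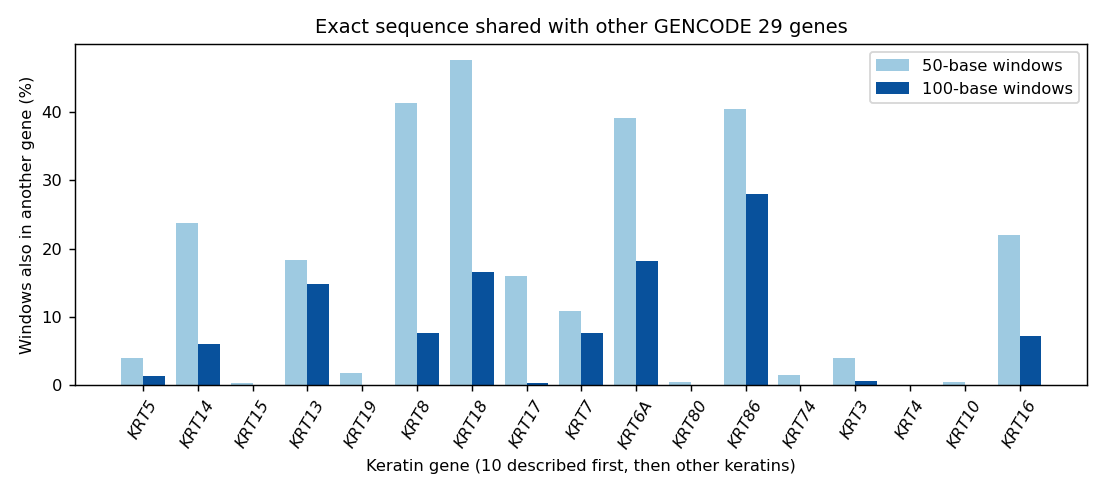
Bars give the percent of a transcript's windows of 50 bases (light) or 100 bases (dark) that also occur, letter for letter, in a transcript of another gene in GENCODE 29. Among the 10 keratins described, *KRT18*, *KRT8* and *KRT6A* have the highest 50-base bars, at 47.6%, 41.3% and 39.1%, and *KRT15* and *KRT19* have 100-base bars of 0%.

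The largest differences among the 10 were in the mucosal, basal and ductal keratins. *KRT13*, *KRT7*, *KRT5*, *KRT15* and *KRT19* stood 10.1 to 25.1 times as high in the libraries labeled LV-*ATF7* as in those labeled LV-NC, *KRT18* stood 1.79 times as high, and *KRT8* stood at nearly the same mean. *KRT14*, *KRT17* and *KRT6A* had lower means in LV-*ATF7*. In these bulk libraries a change in the number of cells making a keratin and a change in its mRNA per cell cannot be told apart. By the call rule that 34.7% of all genes passed in the higher direction and 32.9% in the lower, 6 of the 10 were past the threshold as higher and 1 (*KRT14*) as lower. The call of *KRT14* was lost in DESeq2, and when any 1 library other than LV-NC replicate 1 was left out. A log2 fold change of at least 3 was seen in 5 of the 10, and in 3.32% of all genes. Since the contrast chose the genes, nothing is read from these calls and counts.

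**Figure D2:**
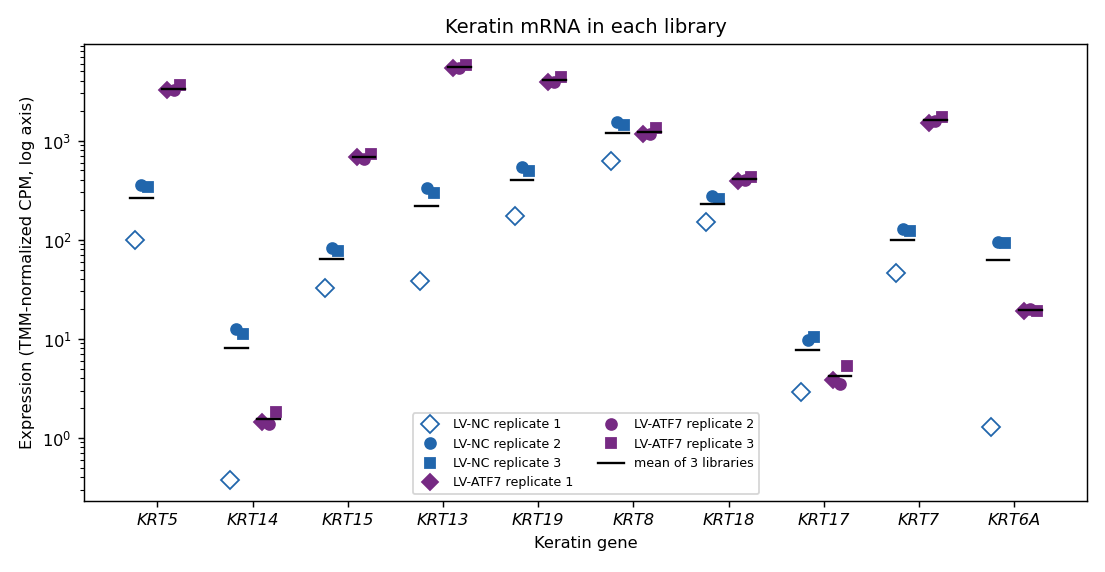
Points give the TMM-normalized CPM (log axis) of each keratin in each of the 6 libraries, by label and replicate, and black lines the means of 3. The 3 LV-*ATF7* points lie above all LV-NC points for *KRT5*, *KRT15*, *KRT13*, *KRT19*, *KRT18* and *KRT7*, and the open diamond, LV-NC replicate 1, is the lowest LV-NC point of every gene.

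Of the basal keratins, *KRT5* (chr12:52514575-52520687, minus strand), the type II keratin of basal keratinocytes, was at 99.96, 355 and 344 CPM in LV-NC replicates 1, 2 and 3. It was at 3224, 3215 and 3622 CPM in LV-*ATF7*. The groups did not overlap, and the log2 fold change was 3.65 (SE 0.45, n = 3 per group), or 3.24 (SE 0.07) without LV-NC replicate 1. *KRT14* (chr17:41582279-41586921, minus strand), its type I partner in basal cells, was hardly counted: 7, 239 and 195 counts in LV-NC and 26, 27 and 33 counts in LV-*ATF7*. In CPM these were 0.375, 12.5 and 11.3 against 1.45, 1.38 and 1.82. LV-NC replicate 1 lay below the LV-*ATF7* libraries and the other LV-NC libraries above them, so the groups overlapped, with a log2 fold change of −2.37 (SE 0.91), or −2.96 (SE 0.19) without that library. The 2 partners thus lay on opposite sides of 0. *KRT14* is a defining marker of the basal keratinocyte, and in no library did it pass 12.5 CPM.

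*KRT15* (chr17:41513743-41522529, minus strand), a type I keratin of basal cells and of the hair follicle bulge, stood at 32.3, 82.6 and 77.1 CPM in LV-NC. In LV-*ATF7* it stood at 678, 660.4 and 734 CPM. The groups did not overlap, and the log2 fold change was 3.43 (SE 0.33), or 3.09 (SE 0.08) without LV-NC replicate 1. The ratio of *KRT5* to *KRT15*, per kilobase of coding sequence, was 2.39 to 3.45 in LV-NC and 3.67 to 3.81 in LV-*ATF7*. The same ratio of *KRT5* to *KRT14* was 22.7 to 213 and 1590 to 1870.

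*KRT13* (chr17:41500981-41505705, minus strand), the type I keratin of suprabasal mucosa, showed the largest difference of the 10. It was at 38.7, 330.2 and 295 CPM in LV-NC and at 5409.9, 5383 and 5839 CPM in LV-*ATF7*. Its log2 fold change was 4.65 (SE 0.71), or 4.13 (SE 0.08) without LV-NC replicate 1, in which it was lower than in the other LV-NC libraries by a factor of 8.08. It was the 7th most counted gene in each LV-*ATF7* library. *KRT19* (chr17:41523617-41528308, minus strand), a type I keratin of simple epithelium and of the basal layer of mucosa, was at 172, 538 and 495 CPM in LV-NC and at 3883, 3913 and 4398 CPM in LV-*ATF7*. The groups did not overlap, and the log2 fold change was 3.34 (SE 0.40), or 2.96 (SE 0.07) without LV-NC replicate 1. *KRT19* ranked 10th and *KRT5* 15th among the genes by count in every LV-*ATF7* library.

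Of the keratins of simple epithelium, *KRT7* (chr12:52232520-52252186, plus strand), found in ducts and glands, was at 45.9, 129 and 122 CPM in LV-NC and at 1522, 1564 and 1722 CPM in LV-*ATF7*. This is a log2 fold change of 4.02 (SE 0.37), or 3.65 (SE 0.08) without LV-NC replicate 1, with no overlap. *KRT8* (chr12:52897187-52949954, minus strand) and *KRT18* (chr12:52948871-52952901, plus strand), which pair in simple epithelium, overlap on opposite strands. *KRT8* was at 621, 1539.7 and 1444 CPM in LV-NC and at 1168, 1165 and 1346 CPM in LV-*ATF7*. Its log2 fold change was 0.03 (SE 0.30), and it was −0.30 (SE 0.07) without LV-NC replicate 1. It also turned negative without LV-*ATF7* replicate 3 (−0.04) and with scaling by library size alone (−0.12), so no direction can be given for *KRT8*. *KRT18* was at 150.5, 279 and 255 CPM in LV-NC and at 388, 401 and 434 CPM in LV-*ATF7*. The groups did not overlap for *KRT18*, and its log2 fold change was 0.84 (SE 0.21), or 0.59 (SE 0.07) without that library. Between these genes the ratio of *KRT8* to *KRT18* per kilobase of coding sequence was 3.47 to 4.76 in LV-NC and 2.44 to 2.61 in LV-*ATF7*.

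Of the wound keratins, *KRT6A* (chr12:52487174-52493257, minus strand) was at 1.28, 95.1 and 92.8 CPM in LV-NC, so that replicate 1 lay lower than the others by a factor of 73.1. In LV-*ATF7* it was at 19.2, 19.9 and 19.1 CPM, between the LV-NC libraries. The log2 fold change was −1.70 (SE 0.998), or −2.29 (SE 0.09) without LV-NC replicate 1. *KRT17* (chr17:41619441-41624842, minus strand) was at 2.89, 9.75 and 10.5 CPM in LV-NC and at 3.8, 3.52 and 5.31 CPM in LV-*ATF7*. Its log2 fold change was −0.88 (SE 0.44), or −1.29 (SE 0.17) without that library. *KRT14*, *KRT8*, *KRT17* and *KRT6A* overlapped between the groups with all 6 libraries, and all 4 were lower in LV-*ATF7* without overlap when LV-NC replicate 1 was left out.

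LV-NC replicate 1 was the lowest library of its group in all 10 keratins. In 9 of the 10 its CPM was at most 0.5 of that of each other LV-NC library, and *KRT18* was the exception. Among all 12462 genes, 4.52% met this rule. In none of the 10 was replicate 1 at least 2 times both others, which 3.12% of genes met. The coefficient of variation of the 10 ran from 29.9% (*KRT18*) to 84.9% (*KRT6A*) in LV-NC, where the median of all genes was 14.4%. In LV-*ATF7* it ran from 2.27% (*KRT6A*) to 22.9% (*KRT17*), where the median of all genes was 7.65%. Over all genes, no overlap as higher in LV-*ATF7* was seen in 38.0% (6 of the 10) and as lower in 34.7% (0 of the 10). Without LV-NC replicate 1 it was 43.5% (6 of the 10) and 42.3% (4 of the 10). An adjusted p under 0.05 was then reached by 80.1% of genes.

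Together the 10 keratins held 0.128%, 0.352% and 0.326% of the counts of LV-NC replicates 1, 2 and 3, a mean of 0.268% ± 0.122 (SD, n = 3). They held 1.56%, 1.56% and 1.67% in LV-*ATF7*, a mean of 1.60% ± 0.0624 (SD, n = 3). The LV-NC mean was 0.339% without replicate 1. *KRT8* made up 53.3%, 45.7% and 45.9% of the keratin counts in LV-NC and 7.17%, 7.14% and 7.43% in LV-*ATF7*. *KRT13* made up 3.32%, 9.80% and 9.36% in LV-NC and 33.2%, 33.0% and 32.2% in LV-*ATF7*. The leading keratin by count was therefore *KRT8* in every LV-NC library and *KRT13* in every LV-*ATF7* library.

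**Figure D3:**
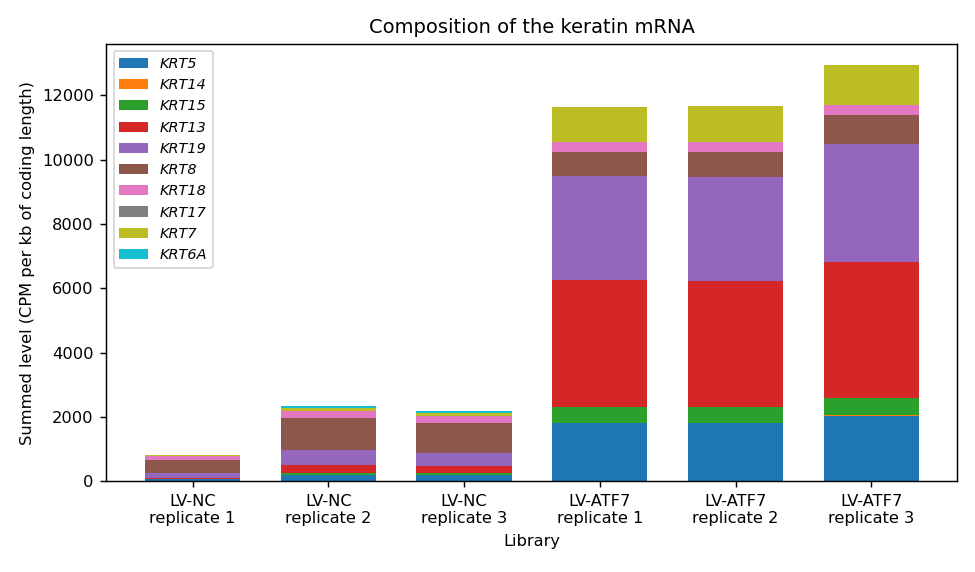
Stacked bars give the TMM-normalized CPM per kilobase of coding length of the 10 keratins in each of the 6 libraries. *KRT8* is the largest segment in the LV-NC libraries, and *KRT13*, *KRT19* and *KRT5* are the largest in the LV-*ATF7* libraries.

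Levels of different genes were compared per kilobase of coding length. In LV-NC the order of the means was *KRT8* (784), *KRT19* (335), *KRT18* (177), *KRT13* (161), *KRT5* (150.5), *KRT7* (70.4), *KRT15* (46.8), *KRT6A* (37.3), *KRT17* (5.96) and *KRT14* (5.69). The ranges over the 3 libraries overlapped between every pair of neighbors in this order. Within each LV-NC library, *KRT8* stood above *KRT19*, *KRT19* above *KRT18*, *KRT5* above *KRT7*, *KRT7* above *KRT15* and *KRT15* above *KRT6A*. The other neighbors changed places between LV-NC libraries. In LV-*ATF7* the order was *KRT13* (4035), *KRT19* (3387), *KRT5* (1895), *KRT7* (1139), *KRT8* (799.8), *KRT15* (505), *KRT18* (316), *KRT6A* (11.5), *KRT17* (3.25) and *KRT14* (1.09). There no neighboring ranges overlapped. With the length of all merged exons in place of the coding length, *KRT15* and *KRT18* changed places in LV-*ATF7*. In LV-NC, *KRT13* and *KRT18*, *KRT15* and *KRT6A*, and *KRT14* and *KRT17* did so.

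Summed over all 17 keratins with a row, 9 of type II and 8 of type I, the ratio of type II to type I per kilobase of coding length was 1.41 to 1.55 in LV-NC. It was 0.486 to 0.498 in LV-*ATF7*. The ratio of *KRT7* to *KRT19* was 0.205 to 0.227 in LV-NC and 0.334 to 0.341 in LV-*ATF7*. That of *KRT4* to *KRT13*, the mucosal pair, was 0.0168 to 0.0172 in LV-NC and 0.0306 to 0.0316 in LV-*ATF7*. *KRT6A* to *KRT17* was 0.340 to 7.47 in LV-NC, with replicate 1 the lowest, and 2.76 to 4.34 in LV-*ATF7*.

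The remaining keratins were listed whatever their values, although with earlier results of these data known, and 7 of the 45 on the list had a row. Of these 7, 4 rose and 2 fell in the quasi-likelihood test of edgeR, adjusted by Benjamini-Hochberg over 12462 genes, beside the 67.6% of all genes called. Their median log2 fold change was 3.10, and that of all genes was 0.000162. *KRT4*, the type II partner of *KRT13* in mucosa, rose from 0.750, 6.45 and 5.62 CPM to 188, 193 and 207 CPM, a log2 fold change of 5.52 (SE 0.54, adjusted p = 6.14e-05). *KRT3*, a keratin of corneal epithelium, rose from 1, 6 and 3 counts to 199, 220 and 200 counts, a log2 fold change of 5.89 (SE 0.34, adjusted p = 4.92e-06). *KRT86*, a hair keratin, was at 2, 4 and 5 counts in LV-NC and at 46, 37 and 27 in LV-*ATF7* (log2 fold change 3.26, adjusted p = 2.52e-04). *KRT86* shares 28.0% of its 100-base windows with other genes, 25.4% with *KRT81*. *KRT74*, of the inner root sheath of the hair follicle, was at 6, 1 and 1 counts and at 29, 19 and 24 counts (log2 fold change 3.10, adjusted p = 0.00173). These last 3 genes were too little counted for more than the direction to be read.

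*KRT10*, the type I keratin of the suprabasal epidermis, fell from 101, 114 and 114 CPM to 75.6, 76.4 and 73.9 CPM, a log2 fold change of −0.55 (SE 0.09, adjusted p = 9.61e-04). *KRT80* passed narrowly, with a log2 fold change of −0.33 (SE 0.12, adjusted p = 0.0379), and its groups overlapped. Leaving out any 1 library other than LV-NC replicate 1 ended the call of *KRT80*. *KRT16*, the type I partner of *KRT6A*, was not called. It was at 20.3, 7.86 and 6.25 CPM in LV-NC and at 12.6, 9.74 and 12 CPM in LV-*ATF7*, so that LV-NC replicate 1 was the highest library, opposite to *KRT6A* and *KRT17*. Without that library *KRT16* was higher in LV-*ATF7* by 0.67 on the log2 scale (SE 0.16, adjusted p = 3.96e-04).

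**Figure D4:**
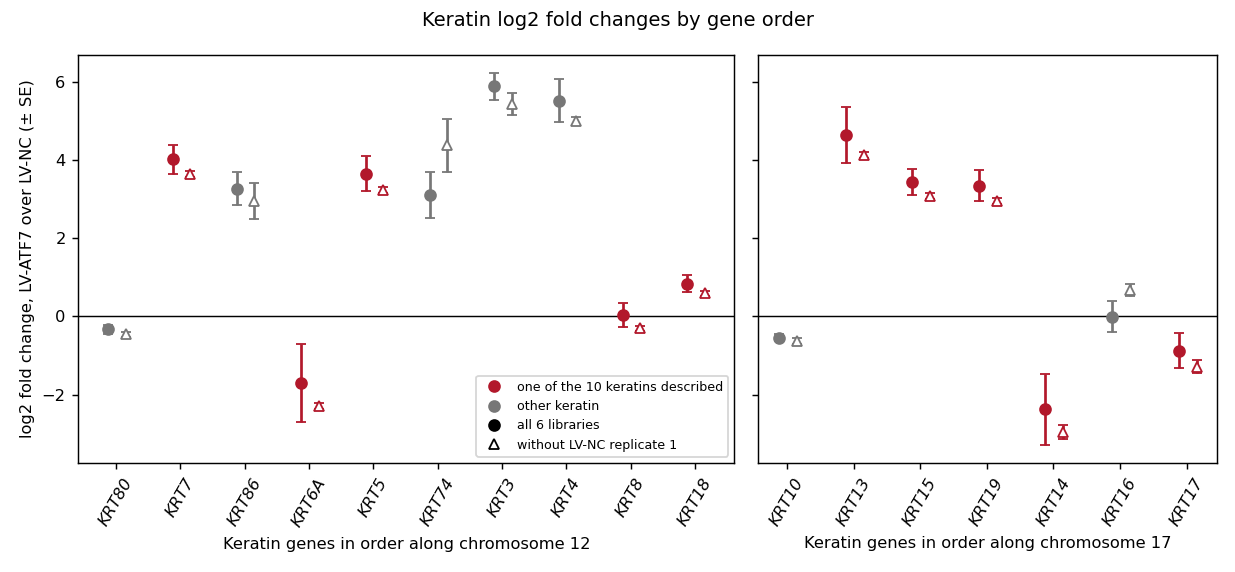
Circles give the log2 fold change (LV-*ATF7* relative to LV-NC) and its SE for each keratin with a row, in the order of the genes along chromosomes 12 and 17, and open triangles give it without LV-NC replicate 1. On chromosome 17 *KRT13*, *KRT15* and *KRT19*, adjacent in this order, lie between 3.34 and 4.65, and *KRT14*, next in the order, lies at −2.37.

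Along chromosome 17 the keratins described stand in 1 run on the minus strand, with *KRT13*, *KRT15* and *KRT19* followed by *KRT14*, *KRT16* and *KRT17*. The first group had log2 fold changes of 4.65, 3.43 and 3.34, and the second of −2.37, −0.00 and −0.88. On chromosome 12, *KRT5*, *KRT74*, *KRT3* and *KRT4* follow each other with log2 fold changes of 3.65, 3.10, 5.89 and 5.52. They lie between *KRT6A* at −1.70 and *KRT8* at 0.03. Only keratins with a row enter this order, and the order itself was not tested.

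In the RefSeq promoter table (GRCh38.p14), *KRT5* and *KRT8* were the only 2 of the 10 matched. The 250 bases before the RefSeq start of *KRT5* (chr12:52520395-52520644, minus strand) are shown because *KRT5* was among the most counted genes in LV-*ATF7*. They lie within the GENCODE span of *KRT5* given above (chr12:52514575-52520687), whose start is upstream of the RefSeq start. The motif searched first was the cAMP response element (CRE), which the family of ATF7 binds. Capitals mark the single match to the CRE half-site TGACG, read on the opposite strand, which begins 232 bases before the RefSeq start.
KRT5: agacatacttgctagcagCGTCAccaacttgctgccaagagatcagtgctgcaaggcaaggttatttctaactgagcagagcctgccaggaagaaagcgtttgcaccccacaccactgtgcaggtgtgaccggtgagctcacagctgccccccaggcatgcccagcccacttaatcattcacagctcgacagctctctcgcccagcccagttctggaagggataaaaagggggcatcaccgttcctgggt

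Searched on both strands over the whole table window (250 bases before to 50 after the start), the half-site TGACG, which the full CRE contains, was in 24.6% of 35116 promoters. It was in that of *KRT5* and not in that of *KRT8*. Of the keratins outside the 10 that were searched, *KRT3*, *KRT4*, *KRT10* and *KRT74* did not hold it either. The full CRE, TGACGTCA, was in 1.85% of promoters and the AP-1 motif TGANTCA in 7.71%, and none of these keratins held either. These matches are letters in a window and say nothing of binding.

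For 9 of the 10 keratins, the gene whose pattern over the 6 libraries was closest is given, found by the root mean square difference of log2 CPM, each gene centered on its own mean. *KRT15* and *KRT19* were each other's closest gene among all tested, with a difference of 0.0975. *KRT5* was closest to *TNNT3* (0.148) and *KRT7* to *FOXJ1* (0.152), and among the 10 these keratins were closest to each other (0.189). *TNNT3* and *FOXJ1* had LV-NC means of only 0.533 and 0.732 CPM, so the matches to them rest on low levels there. *KRT13* was closest to *CDH5* (0.225), which was also lowest in LV-NC replicate 1. *KRT8* was closest to *ETV4* (0.0601) and *KRT17* to *TEDC2* (0.143). *KRT14* and *KRT6A* were both closest to *CYP1A1*, but at larger differences of 0.459 and 0.611. *KRT8* and *KRT18*, although partners, stood 0.404 apart. All these differences rest on the same 6 libraries.

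Of 14 genes for proteins that link keratins to junctions or other filaments, 4 rose, 4 fell and 6 were not called, beside the 67.6% of all genes called, with a median log2 fold change of 0.0325. *PKP1*, a plakophilin of desmosomes, rose with a log2 fold change of 2.16 (SE 0.16, adjusted p = 1.44e-05) from 119.5, 79.0 and 88.5 CPM to 416, 419 and 449 CPM. *FAM83H*, which organizes keratin filaments, rose by 1.09 (SE 0.11, adjusted p = 8.01e-05). *PLEC* (plectin) and *EPPK1* (epiplakin), cytolinkers of the plakin family, had log2 fold changes of −1.24 (SE 0.22, adjusted p = 0.00134) and −1.13 (SE 0.22, adjusted p = 0.00207). The other 4 called genes, named outside the rule for list genes, were *DSP* (desmoplakin, 0.74) and *EVPL* (envoplakin, 0.43), which rose, and *PPL* (periplakin, −0.57) and *MACF1* (−0.34), which fell. *MACF1* passed narrowly (adjusted p = 0.0395) with overlapping groups. *DST*, *JUP*, *PKP2*, *PKP3*, *TCHP* and *SYNM* were not called. Without LV-NC replicate 1, *DST* (0.69, adjusted p = 2.07e-06) and *JUP* (−0.60, adjusted p = 3.66e-09) passed the threshold.

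Of the other intermediate filament genes 7 of 15 had a row, and 1 rose, 1 fell and 5 were not called, beside the same 67.6%. *BFSP1* (filensin), of the lens, had a log2 fold change of −0.67 (SE 0.21, adjusted p = 0.0221). *NES* (nestin), named outside the rule since it had a mean of 25 counts, rose by 1.92 on the log2 scale (SE 0.31, adjusted p = 8.45e-04). *LMNA*, *LMNB1*, *LMNB2*, *SYNM* and *GFAP* were not called. The number called depended on the library left out, being 5 without LV-NC replicate 1, and 1 without LV-NC replicate 2 or LV-*ATF7* replicate 2.

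Of 18 transcription factors known to act on keratin promoters 17 had a row, and 11 rose, 5 fell and *CEBPB* was not called, with a median log2 fold change of 0.697, beside 34.7% of all genes called higher and 32.9% called lower. *TP63*, the regulator of the basal keratinocyte state that acts on *KRT5* and *KRT14*, rose from 18.3, 12.6 and 15.7 CPM to 238, 237 and 219 CPM, a log2 fold change of 3.90 (SE 0.15, adjusted p = 1.18e-06). *CEBPD* rose by 3.82 on the same scale (SE 0.16, adjusted p = 1.66e-06). *POU2F3*, a POU factor of the epidermis, rose from 0.964, 0.367 and 0.752 CPM to 16.7, 17.8 and 19.0 CPM, by 4.68 (SE 0.27, adjusted p = 5.49e-06). Unlike the 10 keratins described, *TP63*, *CEBPD* and *POU2F3* were highest in LV-NC replicate 1 among the LV-NC libraries, as were *KRT16* and *KRT74*. The genes that fell were *GRHL3*, *KLF4*, *TFAP2C*, *GRHL1* and *CEBPA*, of which all but *GRHL3* are named outside the rule, with log2 fold changes of −1.11, −1.06, −0.89 and −0.56. *GRHL3*, a grainyhead-like factor of the epidermal barrier, had a log2 fold change of −1.57 (SE 0.58, adjusted p = 0.0411). Its groups overlapped, with LV-NC at 3.16, 20.9 and 19.0 CPM and LV-*ATF7* at 5.08, 4.54 and 4.92 CPM, and leaving out any 1 library other than LV-NC replicate 1 ended its call.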

How the data were processed

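Poly(A) mRNA from 6 HaCaT libraries, 3 per label, was sequenced on an Illumina NovaSeq instrument. The read counts that the authors deposited for each gene, not normalized, were used here. The FPKM values deposited beside them were not used, nor were the columns of the authors' own test, which hold a fold ratio, a log2 value and a p-value per gene. The submitters' processing notes name GRCh38; the aligner, counting program and strandedness are not given in the sources used here.

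After filterByExpr and TMM scaling, the 2 labels were compared in edgeR 4.0.16 on R 4.3.3 by its quasi-likelihood test (glmQLFit and glmQLFTest) without covariates, adjusted by Benjamini-Hochberg over 12462 genes at a threshold of 0.05. The 33 genes with a blank symbol were kept. Expression is TMM-normalized CPM. The lowest summed count of a gene in the table was 51, and the library totals leave counting error small beside library spread except for rarely counted genes. Lengths, positions and windows are from GENCODE release 29 (GRCh38), promoters from RefSeq.

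The genes and lists were chosen with earlier results of these data known. Genes named from each list were the 4 with the largest absolute log2 fold change among those called with a mean of at least 50 counts, all keratins with a row, those not called, by name only, and the gene closest in pattern to each keratin; values of *CDH5* and *CD14* come from the marker lists. The gene closest to *KRT18* and the rod-end sequences of the type II keratins are not reported here. Tested on simulated counts for the comparison of LV-*ATF7* with LV-NC (12191 genes), the pipeline called 178 of 200 changed genes, with 12 false calls. The simulation had no outlying library and few changed genes, whereas 67.6% of genes were called in the data. Its figures therefore do not give the error rate of the calls made here.

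Alternatives were a block for the replicate number, each library left out in turn, limma 3.58.1 voom with quality weights, DESeq2 1.42.0, scaling by upper quartile or by library size alone, and as filters either none or a minimum of 10 counts in every library.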

Additional observations from a re-analysis of the deposited data

How the results depend on the processing

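Over the 13 alternatives, 9 of the 10 keratins kept the sign of their log2 fold change. *KRT14* could not be fitted with at least 10 counts in every library. The ranges were 3.24 to 3.89 for *KRT5*, 4.13 to 5.07 for *KRT13*, −2.96 to −1.86 for *KRT14* and −2.29 to −0.93 for *KRT6A*, while *KRT8* changed sign, from −0.30 to 0.22, being negative without LV-NC replicate 1, without LV-*ATF7* replicate 3, with voom quality weights and with library size alone. Of 580 values of the 45 other named genes, 524 kept their call or lack of one, 42 lost the call and 10 gained it. The other 4 changed direction with a call in at least 1 of the fits compared. The 524 include sign changes of genes called in neither fit, such as *CEBPB* (−0.19, and 0.02 without LV-NC replicate 1). *KRT16* went from −0.00 to 0.56 with voom quality weights (adjusted p = 0.00211), with a leave-one-out range of −0.34 to 0.67, the highest without LV-NC replicate 1. *LMNB2* went from 0.08 to −0.16 with voom weights, with a leave-one-out range of −0.16 to 0.18, the lowest without LV-NC replicate 1. Other keratins called were 6, and 3 with at least 10 counts in every library, where fewer genes were tested. Other intermediate filaments called were 2, 1 with at least 10 counts, 5 with voom weights and 1 to 5 with 1 library left out. The share of counts in LV-*ATF7* was 1.60%, and 1.69% of the TMM effective library size. Scaling by library size alone gave all genes a median log2 fold change of −0.164, and the share of calls that were higher was 42.4%, against 51.3% with TMM.

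The labels do not say whether libraries that share a replicate number were paired. The correlations of their deviations from the group means were 0.0583, −0.0209 and 0.0649. These cannot decide it, since LV-NC replicate 1 stood apart and shapes the deviations of its whole group. With the replicate block 8210 genes were called, against 8429 without it, 6 other keratins and 1 other intermediate filament gene, and the log2 fold changes were −1.86 for *KRT14* and −0.93 for *KRT6A*. With the block *KRT14* was no longer called, and *DST* was (0.50, adjusted p = 0.0083). The cause of these shifts was not tested.

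Among the keratins and list genes given with values, depth limits *KRT14*, *KRT3*, *KRT74*, *KRT86*, *POU2F3*, *NES* and *DCN*, with 10 or fewer counts in at least 1 library.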
